A study of Homo sapiens with 8 samples.

Results

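The genes described here are 10 genes of prostaglandin synthesis, breakdown, reception and transport: PTGS1, PTGS2, PTGES, PTGES2, PTGES3, HPGD, PTGR1, PTGER2, PTGER4 and SLCO2A1. They are 10 of the 61533 genes listed in the count tables, and all 10 were among the 18738 genes tested. They were picked by name across all 4 groups of the study after a fall of HPGD and a change of PTGS2 under treatment had been seen in these same libraries. Their changes under treatment are therefore given as a description, with called or not called beside each, and carry no p-value. The difference between the cell lines without the inhibitor was not itself used for the choice and is tested. Its DMSO libraries are the controls of the changes seen in HPGD and PTGS2, so for them it is described without a p-value. The same holds for SLCO2A1, for a reason given with it.

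RNA was measured in 8 libraries of 2 established human squamous carcinoma lines. A431 is labelled as a human epidermoid carcinoma line, and CAL27 is a carcinoma line of the tongue. The groups were A431 cells with the compound labelled NEDD8i, A431 cells with the vehicle DMSO, CAL27 cells with NEDD8i and CAL27 cells with DMSO, all for 16 h, with 2 libraries each. NEDD8 is a ubiquitin-like protein that is attached to other proteins, and the labels do not name the inhibitor or its dose. Each line stands for 1 tumour grown as subconfluent cells without other tissue. The labels do not say whether replicates were separate cultures, so the tests measure the spread between these libraries, which may be technical. The libraries held 49037868 to 62509817 counts each. Values are CPM, counts scaled to library size by TMM factors, and changes are log2 changes with their approximate standard error, fitted with edgeR's quasi-likelihood test; a gene was called at a Benjamini-Hochberg adjusted p under 0.05. All 8 squamous markers examined were present in every library, at 109 CPM or more. Of 10 markers of fibroblast, endothelial, immune and melanocyte cells, 2 to 5 were at 0 in a library, PTPRC and CD68 in all 8. The 0 of CD68 says nothing of its level, since 100% of its exonic bases lie under other genes and shared reads were dropped. The summed level of the 10 markers was 12.8 to 13.1 CPM in A431 NEDD8i libraries against 37.1 to 38.4 CPM in A431 DMSO libraries. In CAL27 it was 18.3 to 21.5 CPM with NEDD8i against 38.9 to 39.7 CPM with DMSO. Most of it was COL1A1, CDH5 and CD14, which did not move alike. CD14 and COL1A1 fell in both lines, in CAL27 from means of 17.0 to 1.65 CPM and 14.6 to 6.21 CPM. CDH5 fell in A431, from 17.6 to 2.24 CPM, but rose in CAL27, from 5.87 to 10.3 CPM. The part of these markers in the results below was not tested. In bulk RNA, fewer cells carrying a transcript and less of it per cell cannot be told apart.

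Prostaglandins are short-lived lipid signals made from arachidonate. The cyclooxygenases PTGS1 and PTGS2 turn arachidonate into the common precursor PGH2, terminal synthases turn that into single prostaglandins such as PGE2, and PGE2 acts on neighbouring cells through receptors that raise or lower cAMP. The signal ends when a transporter takes the prostaglandin back into the cell and HPGD oxidises it, after which prostaglandin reductases such as PTGR1 saturate the product. In squamous epithelia PGE2 is known for its part in inflammation, wound repair and tumour growth.

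The promoter letters of 2 synthesis genes are shown because among the 5 synthesis genes of the 10 they changed most under NEDD8i, in opposite directions. RefSeq promoter windows of the assembly GRCh38.p14 were found for 9 of the 10 genes. The stretches printed are the 250 bases before the start site, 5′ to 3′ on the gene's own strand, both genes lying on the minus strand, at chr1:186680424-186680673 for PTGS2 and chr9:129753043-129753292 for PTGES. The PTGS2 stretch lies between the first exons of a shorter and a longer transcript of the counting annotation. Capitals mark matches to 3 motifs in PTGS2 (TTACGCAA, a C/EBP site; CGTCA, the core of the cAMP response element; TATAAA, the TATA box) and to 1 motif in PTGES (GCGTGGGCG, a site of EGR1). Both strands were searched for all 6 motifs used here.
PTGS2: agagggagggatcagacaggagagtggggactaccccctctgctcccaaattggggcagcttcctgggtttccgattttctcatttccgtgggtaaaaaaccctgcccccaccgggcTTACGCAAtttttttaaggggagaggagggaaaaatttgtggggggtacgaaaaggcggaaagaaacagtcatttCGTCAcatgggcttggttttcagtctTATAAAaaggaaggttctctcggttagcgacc
PTGES: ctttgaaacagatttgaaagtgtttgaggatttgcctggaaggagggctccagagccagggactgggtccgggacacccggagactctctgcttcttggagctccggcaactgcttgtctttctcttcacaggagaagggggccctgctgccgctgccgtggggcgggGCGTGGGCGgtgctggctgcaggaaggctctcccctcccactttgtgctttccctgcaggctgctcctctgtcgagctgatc
Counted from the start site, the C/EBP letters of PTGS2 lie at -133 to -126, the cAMP element core at -58 to -54 and the TATA box at -32 to -27. Of 35116 RefSeq windows of the same 250 bases, 0.148% hold TTACGCAA, 21.2% CGTCA and 10.7% TATAAA. In PTGES the EGR1 letters lie at -82 to -74, and 0.72% of the windows hold them. They were also found in 1 of the 3 windows of PTGES2. One of the HPGD windows holds CAGGTG, the E-box bound by Snail-type repressors, at -138 to -133, as do 17.5% of all windows. The PTGR1 window holds none of the 6 motifs, among them TGACNNNGC, the core of the antioxidant response element, which 10.9% of all windows hold. TGACNNNGC was found in windows of PTGS1, PTGES2 and PTGES3. Besides PTGS2, CGTCA was found in windows of PTGES3, HPGD and PTGER2, and TATAAA in a window of PTGS1. CAGGTG was also found in a window of PTGES2. A match is a likeness of letters and says nothing of binding.

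Under NEDD8i, PTGR1 and PTGS2 were higher and PTGES and HPGD were lower in both lines, while PTGS1 and PTGES3 differed by at most 1.08-fold. In A431, 4 of the 10 genes were called, 2 higher and 2 lower, where 43.6% of all 18738 tested genes were called, 22.5% higher and 21.1% lower. In CAL27, 8 of the 10 were called, 3 higher and 5 lower, where 49.6% of all tested genes were called, 23.2% higher and 26.4% lower. For the CAL27 change minus the A431 change 4 of the 10 were called, 1 higher and 3 lower, where 34% of all tested genes were called, 14.2% higher and 19.8% lower; 2 of them differed by at least 2-fold, where 10.8% of all tested genes did. The median log2 change of the 10 genes was 0.01 in A431 and -0.31 in CAL27, beside -0.01 and -0.04 for all tested genes. Called genes with a change of at least 2-fold were 4 of 10 in A431 and 5 of 10 in CAL27, with 13.4% and 18.7% of all tested genes past the same limits. The choice of the genes used these comparisons, so nothing is read from these counts.

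**Figure D1:**
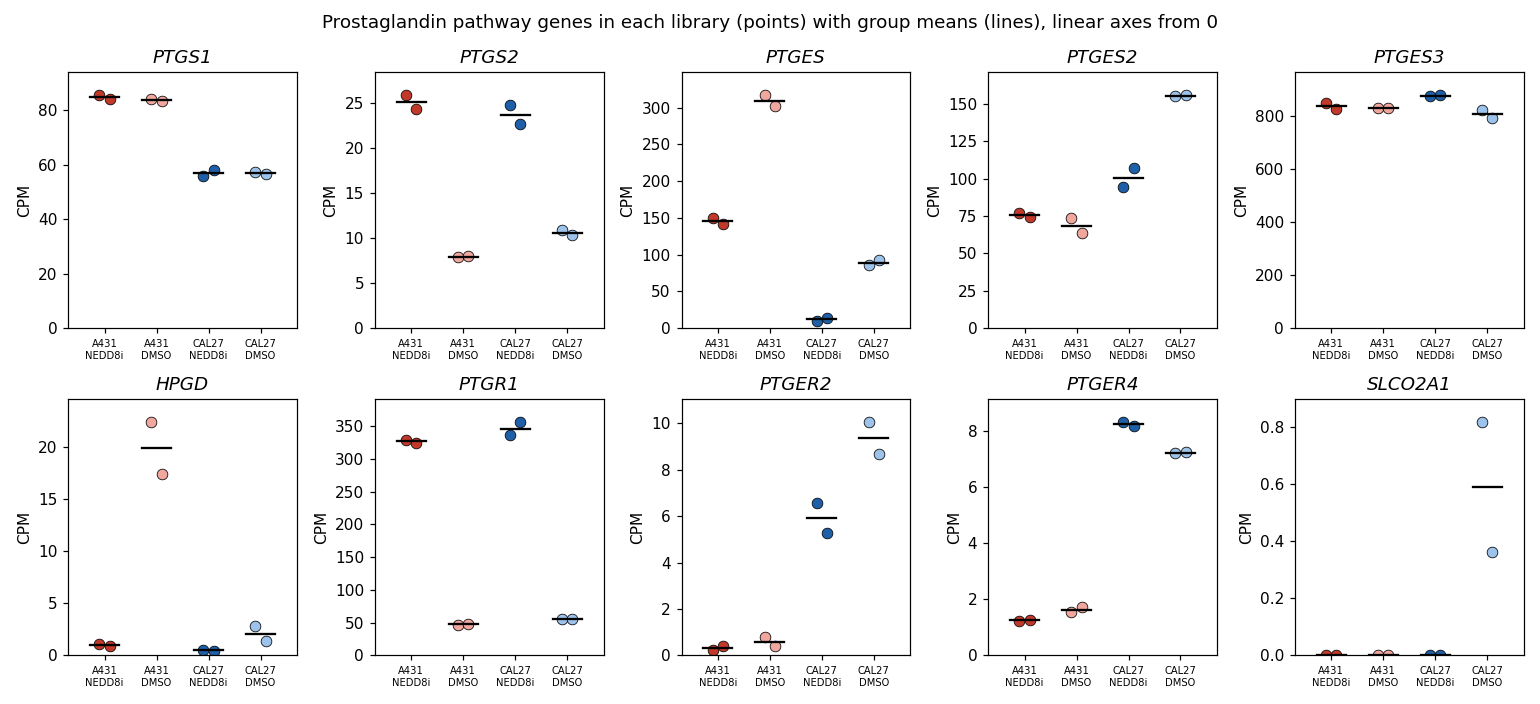
CPM of each of the 10 genes in every library (points, 2 per group) with the group mean (line), on linear axes that start at 0, for NEDD8i and DMSO in A431 (red) and CAL27 (blue). PTGR1 and PTGS2 stand higher and PTGES and HPGD lower in the NEDD8i libraries of both lines, and PTGER2 and PTGER4 are separated by line.

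Among the cyclooxygenases, PTGS1 encodes the constitutive enzyme (GRCh38 chromosome 9, 122370542 to 122395703, plus strand). It measured 85.5 and 84.0 CPM in the 2 A431 NEDD8i libraries against 84.1 and 83.3 CPM in the A431 DMSO libraries. In CAL27 it measured 55.8 and 58.2 CPM with NEDD8i against 57.2 and 56.6 CPM with DMSO. The NEDD8i and DMSO ranges overlapped in each line, and the log2 change was 0.02 ± 0.06 in A431 and 0.00 ± 0.06 in CAL27, neither called; with upper-quartile scaling the A431 change was -0.05.

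PTGS2, the inducible cyclooxygenase (chromosome 1, 186671791 to 186680922, minus strand), was higher in every NEDD8i library than in any DMSO library. It measured 25.9 and 24.4 CPM in A431 NEDD8i libraries against 7.86 and 8.03 CPM in A431 DMSO libraries. In CAL27 it measured 24.8 and 22.7 CPM with NEDD8i against 10.9 and 10.3 CPM with DMSO. The treated libraries of the 2 lines overlapped, whereas the CAL27 DMSO libraries lay above the A431 DMSO libraries. PTGS2 had a log2 change of 1.66 ± 0.11 in A431, 3.16-fold, and 1.16 ± 0.11 in CAL27, 2.23-fold, both called. The CAL27 change minus the A431 change was -0.50 ± 0.16 and was called. That call was lost without the first A431 DMSO, the first A431 NEDD8i, the first CAL27 DMSO or the second CAL27 NEDD8i library, with the difference between -0.48 and -0.44 in those fits. An antisense gene, PACERR, covers 4.63% of the exonic bases of PTGS2 and had 0 to 4 counts in a library.

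PTGES encodes the inducible microsomal PGE2 synthase that works with PTGS2 (chromosome 9, 129738349 to 129753042, minus strand), and it moved the other way. It measured 150.5 and 141.5 CPM in A431 NEDD8i libraries against 317 and 302 CPM in A431 DMSO libraries. CAL27 libraries held 10.3 and 13.8 CPM with NEDD8i against 86.0 and 92.4 CPM with DMSO. The 4 groups did not overlap, and the treated A431 libraries still lay above the untreated CAL27 libraries. Its log2 change was -1.08 ± 0.08 in A431, 2.12-fold lower, and -2.88 ± 0.09 in CAL27, 7.36-fold lower, both called, and the CAL27 change minus the A431 change was -1.79 ± 0.12, also called. No call of PTGES was lost in an alternative run, and its A431 change lay between -1.15 and -1.03.

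The other PGE2 synthases changed less. PTGES2, a membrane-bound synthase of constitutive expression (chromosome 9, 128120693 to 128128462, minus strand), measured 77.1 and 74.2 CPM in A431 NEDD8i libraries against 73.6 and 63.5 CPM in A431 DMSO libraries. In CAL27 it measured 94.3 and 107.0 CPM with NEDD8i against 155.1 and 155.8 CPM with DMSO. CAL27 DMSO was the highest of the 4 groups, and the treated CAL27 libraries lay between it and A431. The log2 change was 0.14 ± 0.07 in A431, not called, and -0.63 ± 0.07 in CAL27, called, and the difference between them of -0.77 ± 0.10 was called. Without the first A431 DMSO library the A431 change was 0.26 and was called. PTGES3, a cytosolic PGE2 synthase also known as the HSP90 cochaperone p23 (chromosome 12, 56663343 to 56688408, minus strand), measured 848.1 and 825.2 CPM in A431 NEDD8i libraries against 828.2 and 828.9 CPM in A431 DMSO libraries. In CAL27 it measured 873.9 and 877.5 CPM with NEDD8i against 823.3 and 792.5 CPM with DMSO. Over the 4 groups its mean ranged from 807.9 to 875.7 CPM. The log2 change was 0.01 ± 0.04 in A431, with the opposite sign, -0.06, under upper-quartile scaling, and was not called. In CAL27 it was 0.12 ± 0.04 and called, 1.08-fold; that call was lost without the second CAL27 DMSO library, at 0.11.

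Breakdown genes split. HPGD, which encodes the dehydrogenase that inactivates PGE2 (chromosome 4, 174490175 to 174523065, minus strand), had 48 and 50 counts in A431 NEDD8i libraries against 1284 and 894 counts in A431 DMSO libraries. CAL27 libraries had 30 and 28 counts with NEDD8i against 151 and 92 with DMSO. In A431 this was 1.05 and 0.91 CPM with NEDD8i against 22.3 and 17.3 CPM with DMSO. In CAL27 it was 0.56 and 0.47 CPM with NEDD8i against 2.80 and 1.39 CPM with DMSO. None of the groups overlapped. The 2 CAL27 DMSO libraries differed most between replicates, with an SD of 47.4% of their mean. HPGD had a log2 change of -4.34 ± 0.29 in A431, 20.3-fold lower, and -2.01 ± 0.33 in CAL27, 4.04-fold lower, both called. The CAL27 change minus the A431 change was 2.33 ± 0.45, called. Leaving out 1 library at a time moved the A431 change between -4.51 and -4.14 and the CAL27 change between -2.43 and -1.42, and no call was lost. The value of -1.42 was the one without the first CAL27 DMSO library, where the difference between the lines' changes was 2.91. A gene known only by its identifier covers 6.77% of the exonic bases of HPGD and had 0 counts in all 8 libraries.

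PTGR1, the reductase of the next step, which also inactivates leukotriene B4 (chromosome 9, 111549722 to 111599835, minus strand), measured 329.6 and 323.8 CPM in A431 NEDD8i libraries against 46.4 and 48.7 CPM in A431 DMSO libraries. In CAL27 it measured 335.9 and 355.9 CPM with NEDD8i against 55.5 and 55.9 CPM with DMSO. The NEDD8i libraries lay far above the DMSO libraries in both lines, and no groups overlapped. Its log2 change was 2.78 ± 0.05 in A431, 6.87-fold, and 2.63 ± 0.05 in CAL27, 6.21-fold, both called. The CAL27 change minus the A431 change was -0.15 ± 0.07 and was not called. The exons of ZNF483, which had 26 to 60 counts in A431 libraries and 274 to 559 in CAL27 libraries, cover 4.03% of its exonic bases.

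**Figure D2:**
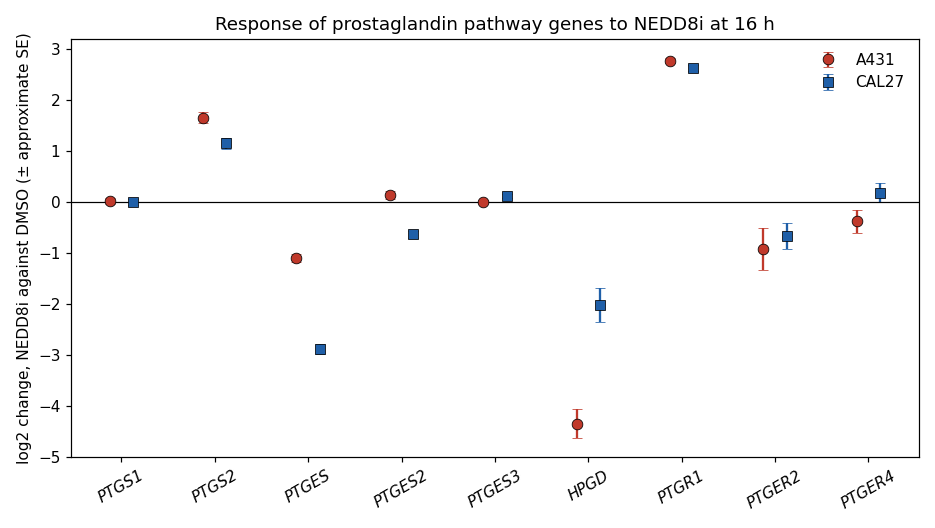
Log2 change of 9 of the genes with NEDD8i against DMSO, with the approximate standard error, in A431 (circles) and CAL27 (squares). PTGS2 and PTGR1 lie above 0 and PTGES and HPGD below 0 in both lines, with HPGD lower in A431 and PTGES lower in CAL27; SLCO2A1 is left out because 3 of its 4 groups are at 0.

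The receptor genes were lower in A431 than in CAL27. PTGER2 and PTGER4 encode the PGE2 receptors EP2 and EP4, which raise cAMP. PTGER2 (chromosome 14, 52314305 to 52328598, plus strand) had 10 and 22 counts in A431 NEDD8i libraries against 46 and 20 in A431 DMSO libraries, groups that overlapped. In CAL27 it had 354 and 316 counts with NEDD8i, 6.58 and 5.28 CPM, against 542 and 574 counts with DMSO, 10.0 and 8.69 CPM. Its log2 change was -0.92 ± 0.41 in A431, not called, and -0.66 ± 0.25 in CAL27, called. The CAL27 call was lost without either CAL27 DMSO library or without the second CAL27 NEDD8i library, with values from -0.74 to -0.50, and with DESeq2, at -0.63. PTGER2 in A431 was called without the second A431 DMSO or the second A431 NEDD8i library, and its A431 change ranged from -1.44 to -0.28 with 1 library left out.

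PTGER4 (chromosome 5, 40679915 to 40693735, plus strand) measured 1.23 and 1.27 CPM in A431 NEDD8i libraries against 1.53 and 1.71 CPM in A431 DMSO libraries. In CAL27 it measured 8.29 and 8.15 CPM with NEDD8i against 7.19 and 7.24 CPM with DMSO. The libraries of the 2 treatments did not overlap in either line, but the log2 changes, -0.37 ± 0.23 in A431 and 0.19 ± 0.19 in CAL27, were not called. Their difference of 0.56 ± 0.29 was not called either. SLCO2A1, the prostaglandin uptake transporter (chromosome 3, 133932701 to 134029925, minus strand), had 0 counts in both CAL27 NEDD8i libraries against 44 and 24 in the CAL27 DMSO libraries, and 0 in all 4 A431 libraries. In CAL27 it was therefore at least 21.5-fold lower with NEDD8i, set against a floor of 3 counts over the group, and it was called. SLCO2A1 passed the count filter only through the CAL27 DMSO libraries, so its call is a description. That call was lost without the first CAL27 DMSO library and with DESeq2. In A431 both groups were at 0, and no change can be given.

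The lines were then compared without the inhibitor. These DMSO libraries are also the controls of the NEDD8i comparisons, so the differences of HPGD and PTGS2 are not independent of the choice. In CAL27 against A431, 9 of the 10 genes were called, 6 higher and 3 lower, where 58.9% of all tested genes were called, 29.9% higher and 29% lower, and 6 differed by at least 2-fold, where 27.7% of all tested genes did. The median log2 difference was 0.32 for the 10 genes and 0.05 for all tested genes. The receptors and the transporter were higher in CAL27. PTGER2 averaged 9.37 ± 0.96 CPM in CAL27 DMSO and 0.594 ± 0.291 CPM in A431 DMSO libraries (SD, n = 2 each), a log2 difference of 3.96 ± 0.31, 15.5-fold, with an edgeR adjusted p of 5.84e-09. It was 4.59 without the first and 3.54 without the second A431 DMSO library, and stayed called. PTGER4 averaged 7.21 ± 0.03 CPM in CAL27 DMSO and 1.62 ± 0.13 CPM in A431 DMSO libraries, a log2 difference of 2.16 ± 0.21, 4.46-fold, with an adjusted p of 7.28e-08. SLCO2A1 was at least 20.6-fold higher in CAL27 and was called. It passed the count filter only through the CAL27 DMSO libraries, where it is high. Its call is therefore a description and no p-value is given. That call was lost without the first CAL27 DMSO library and with DESeq2.

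HPGD and PTGES were lower in CAL27. HPGD averaged 2.10 ± 0.99 CPM in CAL27 DMSO and 19.8 ± 3.52 CPM in A431 DMSO libraries, a log2 difference of -3.26 ± 0.26, 9.56-fold, and was called. The HPGD difference ranged from -3.83 to -2.82 with 1 library left out and stayed called. PTGES averaged 89.2 ± 4.59 CPM in CAL27 DMSO and 309.5 ± 10.6 CPM in A431 DMSO libraries, a log2 difference of -1.79 ± 0.08, 3.47-fold, with an adjusted p of 2.77e-12. The remaining synthesis genes did not share a direction. PTGES2 was higher in CAL27 by 1.18 ± 0.07 on the log2 scale (adjusted p = 2.11e-10) and PTGS2 by 0.42 ± 0.11 (called). PTGS1 fell by 0.56 ± 0.06 in CAL27 relative to A431 (adjusted p = 2.83e-07). PTGR1 was higher in CAL27 by 0.23 ± 0.05 (adjusted p = 0.000973). PTGES3 did not pass the test, at -0.04 ± 0.04 with an adjusted p of 0.424, and turned to 0.01 under upper-quartile scaling. Ordered by level over all 4 groups, HPGD ran A431 DMSO, CAL27 DMSO, A431 NEDD8i, CAL27 NEDD8i, and no neighbouring groups in that order overlapped. PTGES ran A431 DMSO, A431 NEDD8i, CAL27 DMSO, CAL27 NEDD8i, also without overlap. PTGS2 and PTGR1 both had the 2 NEDD8i groups above the 2 DMSO groups, with CAL27 DMSO above A431 DMSO.

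**Figure D3:**
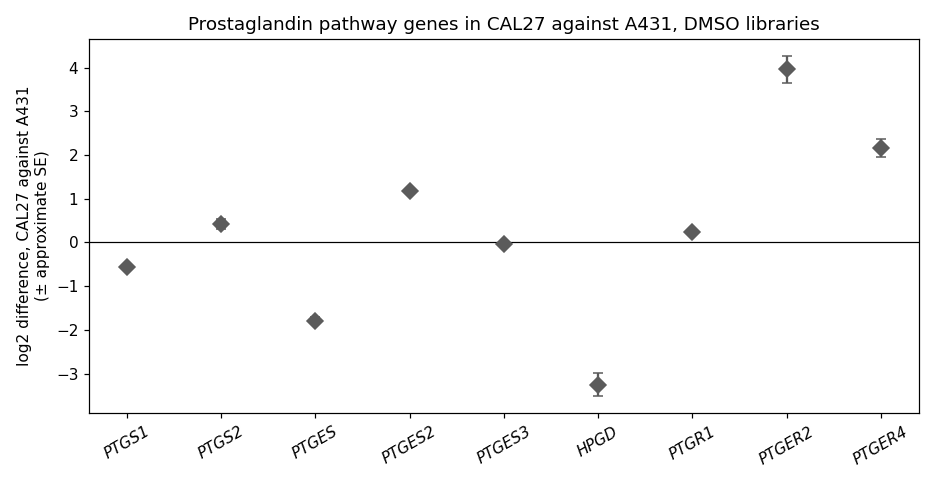
Log2 difference of 9 of the genes between CAL27 and A431 libraries with DMSO, with the approximate standard error. PTGER2, PTGER4 and PTGES2 lie above 1 and PTGES and HPGD below -1; SLCO2A1 is left out because A431 is at 0.

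The genes around the pathway were taken as lists by role. In the counts of list genes, a gene that rose or was higher, or fell or was lower, was called. Of all 18738 tested genes, 22.5% were called higher and 21.1% lower in A431, and 23.2% and 26.4% in CAL27. These shares belong beside every list count below, and nothing is read from the counts. The lists were chosen with earlier results of these data known. Most genes named from them were picked because they were called with the largest changes. Their adjusted p-values therefore describe these libraries and are not support. Of 16 genes that release arachidonate from lipids or hold that release back, 12 were tested, and 2 rose and 2 fell in A431 while 4 rose and 2 fell in CAL27, with median log2 changes of -0.22 and 0.03. ANXA1, which encodes annexin A1, an inhibitor of phospholipase A2, is on the list and among the genes that rose in both lines. PLA2G4A, the cytosolic phospholipase that supplies the cyclooxygenases, fell in both lines. It averaged 5.82 ± 0.19 CPM with NEDD8i and 18.3 ± 1.12 CPM with DMSO in A431 (SD, n = 2 each), a log2 change of -1.66 with an adjusted p of 1.95e-07. In CAL27 PLA2G4A averaged 1.68 ± 0.17 CPM with NEDD8i and 7.71 ± 1.20 CPM with DMSO, a log2 change of -2.19 with an adjusted p of 1.52e-08. PLA2G4A lies 148027 bases from PTGS2, which was higher in the same libraries. PLA2G12A, a secreted phospholipase, rose in A431 to 25.5 ± 0.98 CPM with NEDD8i against 13.0 ± 1.09 CPM with DMSO (adjusted p = 3.51e-06). In CAL27 PLA2G12A rose by 0.51 on the log2 scale (adjusted p = 0.00209). PLA2G4D, a phospholipase of epidermis, rose in CAL27 to 3.86 ± 1.09 CPM with NEDD8i against 0.80 ± 0.24 CPM with DMSO (adjusted p = 0.00457). In A431 PLA2G4D averaged 0.54 ± 0.52 CPM with NEDD8i and 0.15 ± 0.17 CPM with DMSO, a log2 change of 1.88 (adjusted p = 0.0562). It was not called there, but was called higher in 7 of 16 alternatives.

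Of 8 other prostanoid synthases and carbonyl reductases, 6 were tested, and 3 rose and 1 fell in each line, with median log2 changes of 0.95 in A431 and 0.23 in CAL27. AKR1C3, which makes PGF2-type prostaglandins, averaged 842 ± 16.5 CPM with NEDD8i and 82.0 ± 7.54 CPM with DMSO in A431, a log2 change of 3.36 (adjusted p = 6.83e-16). In CAL27 AKR1C3 averaged 52.7 ± 6.11 CPM with NEDD8i and 2.71 ± 0.20 CPM with DMSO, a log2 change of 4.29 (adjusted p = 1.16e-15). AKR1C3 has near-identical relatives, and reads shared with them were dropped by the counting. AKR1B1, an aldose reductase with PGF synthase activity, rose by a log2 change of 1.79 in A431 (adjusted p = 3.52e-15) and 0.93 in CAL27 (adjusted p = 1.43e-11). CBR1, a carbonyl reductase that turns PGE2 into PGF2-type prostaglandins, rose by 1.11 in A431 (adjusted p = 4.07e-10) and 0.46 in CAL27 (adjusted p = 1.44e-05); other genes cover 18.9% of its exonic bases. PTGIS, the prostacyclin synthase, had 6 and 18 counts in A431 NEDD8i libraries against 262 and 265 in A431 DMSO libraries. Its log2 change was -4.36 and was called, and it had 0 counts in all CAL27 libraries. PTGIS passed the count filter only through the A431 DMSO libraries, where it is high, so its call is a description. Without the first or the second A431 NEDD8i library the PTGIS change was -3.87 or -5.17. PRXL2B, a PGF synthase, fell in CAL27 by 0.81 on the log2 scale (adjusted p = 2.14e-06).

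Of 7 other genes of prostaglandin transport and breakdown, 6 were tested, with 3 higher and 1 lower in A431 and 1 higher and 2 lower in CAL27, and medians of 0.07 and -0.26. PTGR3, a further prostaglandin reductase, fell in both lines. It averaged 17.3 ± 0.62 CPM with NEDD8i and 28.3 ± 0.75 CPM with DMSO in A431 (adjusted p = 2.7e-05), and 8.96 ± 0.37 CPM with NEDD8i and 16.8 ± 1.12 CPM with DMSO in CAL27 (adjusted p = 1.91e-06), whereas PTGR1 was higher. SLCO4A1, an organic anion transporter, averaged 17.0 ± 1.90 CPM with NEDD8i and 2.16 ± 0.58 CPM with DMSO in A431 (adjusted p = 2.1e-11). In CAL27 SLCO4A1 rose by 0.35 on the log2 scale (adjusted p = 0.00811), a call lost without the first CAL27 DMSO or the first CAL27 NEDD8i library. SLCO3A1, a transporter of the same family, rose by 0.31 in A431 (adjusted p = 0.00011) and changed by -0.59 in CAL27 (adjusted p = 8.62e-08). CBR3 rose in A431 by 2.33 (adjusted p = 4.5e-08), but counting ignored strand, and 71.1% of its exonic bases lie under another gene. Of 7 other prostanoid receptor genes, only TBXA2R, the thromboxane receptor, passed the count filter, with 0 to 24 counts in a library, and it was not called in either line.

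**Figure D4:**
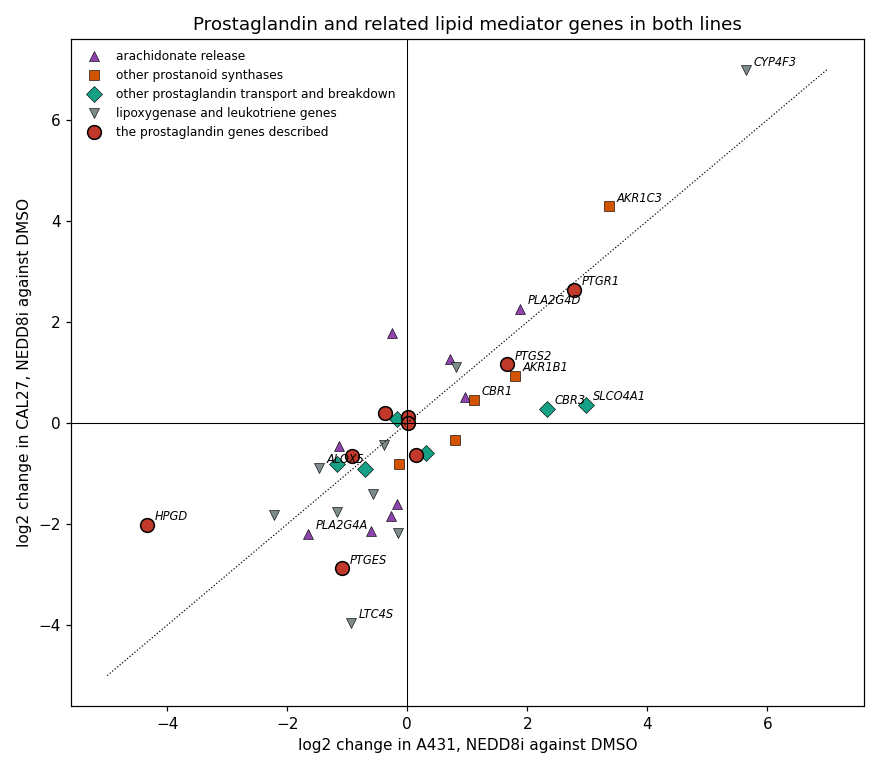
Log2 change with NEDD8i against DMSO in A431 (horizontal) and CAL27 (vertical) for the prostaglandin genes described (red circles) and genes of 4 related lists; genes at 0 in a group are left out, and the dotted line marks equal changes. AKR1C3, PTGR1 and PTGS2 lie high in both lines, and HPGD, PTGES and PLA2G4A lie low in both.

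The lipoxygenase branch, which makes leukotrienes and hydroxy fatty acids from the same arachidonate, had 10 of 14 genes tested. In A431 2 were higher and 3 lower, where 22.5% and 21.1% of all tested genes were. In CAL27 2 were higher and 6 lower, where 23.2% and 26.4% of all tested genes were. Its median log2 change was -0.48 in A431 and -1.58 in CAL27, or -1.53 in CAL27 with the gene at 0 set at its bound. CYP4F3, which breaks down leukotriene B4, averaged 162 ± 2.45 CPM with NEDD8i and 3.28 ± 1.24 CPM with DMSO in A431, a log2 change of 5.64 (adjusted p = 5.24e-15). In CAL27 CYP4F3 averaged 21.3 ± 1.03 CPM with NEDD8i and 0.165 ± 0.0236 CPM with DMSO (adjusted p = 1.23e-13). ALOX5, the lipoxygenase that starts leukotriene synthesis, fell in A431 to 2.79 ± 0.45 CPM with NEDD8i against 7.71 ± 1.44 CPM with DMSO (adjusted p = 2.8e-05). It was called lower in CAL27 too, at 2.85 ± 0.08 CPM with NEDD8i against 5.27 ± 0.62 CPM with DMSO. LTC4S, a leukotriene synthase, had 2 and 2 counts in CAL27 NEDD8i libraries against 48 and 18 in CAL27 DMSO libraries and was called. That call was lost without the first CAL27 DMSO or the second CAL27 NEDD8i library. LTC4S passed the count filter only through the CAL27 DMSO libraries, where it is high, so its call is a description. Of 10 genes of arachidonate supply and storage, 9 were tested, with 4 higher and 3 lower in A431 and 3 higher and 5 lower in CAL27, and medians of -0.01 and -0.39. FADS1, a desaturase that forms arachidonate, averaged 608 ± 7.11 CPM with NEDD8i and 156 ± 3.31 CPM with DMSO in A431, a log2 change of 1.96 (adjusted p = 2.23e-14). In CAL27 FADS1 rose by 0.61 (adjusted p = 6.62e-08). FADS2, the desaturase before it, rose by 1.39 in A431 (adjusted p = 3.95e-09) and changed by -1.02 in CAL27 (adjusted p = 9.84e-07). ACSL1, which activates fatty acids, fell in CAL27 to 11.5 ± 0.60 CPM with NEDD8i against 27.2 ± 2.04 CPM with DMSO (adjusted p = 6.82e-10). In A431 ACSL1 changed by -0.26 (adjusted p = 0.00471), a call lost without the second A431 NEDD8i library.

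The genes that act on PTGS2 were described next. Of 8 proteins that bind and stabilise or destabilise mRNAs such as that of PTGS2, all tested, 3 were higher and 2 lower in A431 and 4 higher and 2 lower in CAL27, with medians of 0.12 and 0.10. ZFP36, which destabilises such mRNAs, fell in CAL27 to 51.5 ± 4.41 CPM with NEDD8i against 121 ± 2.42 CPM with DMSO (adjusted p = 4.23e-08). In A431 ZFP36 had a log2 change of 0.15 (adjusted p = 0.35), which was 0.45 and called without the first A431 DMSO library. ZFP36L1, of the same family, rose by 0.75 in A431 (adjusted p = 1.36e-08) and 0.37 in CAL27 (adjusted p = 4.28e-05). ZFP36L2 fell by 0.75 in A431 (adjusted p = 4.39e-09). In CAL27 ZFP36L2 changed by -0.15 (adjusted p = 0.0429), a call lost in 13 of 16 alternatives. Of 10 transcription factors known at the PTGS2 promoter, 5 were higher and 4 lower in A431 and 4 higher and 6 lower in CAL27, with medians of 0.20 and -0.32. FOSL1, an AP-1 subunit, rose to 409 ± 18.2 CPM with NEDD8i against 43.7 ± 6.64 CPM with DMSO in A431 (adjusted p = 1.53e-14), and to 976 ± 116 CPM with NEDD8i against 119.9 ± 6.53 CPM with DMSO in CAL27 (adjusted p = 1.45e-14). FOS, another AP-1 subunit, fell by 1.54 on the log2 scale in A431 (adjusted p = 3.13e-11) and by 4.24 in CAL27 (adjusted p = 2.46e-16).

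Factors whose letters were found in the printed promoters were named after their values had been seen. Their changes are therefore descriptions and carry no p-value. EGR1, whose site lies in the PTGES stretch, averaged 251 ± 19.1 CPM with NEDD8i and 575 ± 49.6 CPM with DMSO in A431, a log2 change of -1.20, called. In CAL27 EGR1 averaged 97.5 ± 14.6 CPM with NEDD8i and 494 ± 27.8 CPM with DMSO, a log2 change of -2.34, called. EGR1 and PTGES were thus lower in the same groups, and whether one bears on the other was not tested. CEBPB, of the C/EBP family, had log2 changes of 0.43 in A431 and -0.26 in CAL27, both called. Its CAL27 call was lost without the first CAL27 DMSO library. CEBPD, of the same family, changed more, by 0.86 in A431 and -1.92 in CAL27, both called. ATF2, on the same list of promoter factors, changed by -0.73 in A431 and -0.39 in CAL27, both called. CREB1, which binds the cAMP element, had log2 changes of -0.22 in A431 and 0.30 in CAL27, both called. Its A431 call was lost without the second A431 NEDD8i library.

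Lists downstream of or beside the pathway were counted too. Of 9 genes that respond to cAMP, the messenger of PTGER2 and PTGER4, 2 were higher and 3 lower in A431 and 4 higher and 3 lower in CAL27, with medians of 0.21 and -0.23. PER1 was called lower in both lines, with log2 changes of -2.53 in A431 and -1.95 in CAL27. SIK1 was called lower in both too, at -0.97 and -0.87, and NR4A2 was called higher in both, at 0.90 and 0.82. CREM (0.90) was called higher and NR4A1 (-0.91) lower in CAL27 only. CREB5 rose in CAL27 to 990 and 858 counts with NEDD8i against 4 and 20 counts with DMSO, a log2 change of 6.36, called. That change was 5.76 without the first and 7.76 without the second CAL27 DMSO library. In A431 CREB5 had 10 and 14 counts with NEDD8i and 0 with DMSO, also called. CREB5 passed the count filter only through NEDD8i libraries, where it is high, so both calls are descriptions. NR4A3 was called lower in A431 with 0 counts in both NEDD8i libraries against 0 and 12 in the DMSO libraries (adjusted p = 0.0487), a call lost without the second DMSO library or either NEDD8i library, with DESeq2, with a filter at 1 CPM and with counts divided by 2. In CAL27 NR4A3 had 125 and 124 counts with NEDD8i against 42 and 14 with DMSO (adjusted p = 0.0387), a call lost without the second CAL27 DMSO library, without either CAL27 NEDD8i library, with DESeq2 (adjusted p = 0.403) and in the fit blocked by replicate (adjusted p = 0.0512). Of 9 genes of HSP90 and its cochaperones, the partners of PTGES3, 2 were higher and 1 lower in A431 and 5 higher and 2 lower in CAL27, with medians of 0.02 and 0.30. HSP90AA1 fell by 0.27 in A431 (adjusted p = 2.12e-06). In CAL27 HSP90AA1 had a log2 change of 0.06 (adjusted p = 0.131), called higher in some alternatives, such as RLE scaling (0.09, adjusted p = 0.027). FKBP4 rose by 0.29 in A431 (adjusted p = 0.000154) and changed by -0.28 in CAL27 (adjusted p = 0.000135). In CAL27 CDC37 rose by 0.75 (adjusted p = 4.54e-10) and FKBP5 fell by 0.57 (adjusted p = 0.000421).

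Of 10 genes known as targets of the transcription factor NRF2, a list that holds reductases as PTGR1 is, 9 were higher and 1, PIR, lower in each line, with medians of 2.42 in A431 and 1.89 in CAL27. SLC7A11, a cystine transporter, averaged 1200 ± 8.65 CPM with NEDD8i and 111 ± 12.3 CPM with DMSO in A431, a log2 change of 3.43 (adjusted p = 5.51e-17). In CAL27 SLC7A11 averaged 462 ± 9.63 CPM with NEDD8i and 22.8 ± 0.22 CPM with DMSO, a log2 change of 4.34 (adjusted p = 7.82e-18). SRXN1, a sulfiredoxin, rose by 3.66 in A431 (adjusted p = 2.19e-14) and 3.61 in CAL27 (adjusted p = 2.53e-14); another gene covers 90.7% of its exonic bases.

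The genes whose pattern over the 8 libraries was nearest to that of a member were found by the Euclidean distance of log2 CPM centred on the mean of each gene. Nearest to HPGD were LIPC, FAXDC2, ACSS1, TTLL1 and BMF, at distances of 1.71 to 1.99. LIPC had log2 changes of -3.24 in A431 and -1.47 in CAL27 and a line difference of -3.20, beside -4.34, -2.01 and -3.26 for HPGD. PTPN12, MALT1, TESK1, PHLDA2 and COA6 were nearest to PTGS2, at 0.20 to 0.29, and PTPN12 had log2 changes of 1.61 in A431 and 0.99 in CAL27. ID1 was nearest to PTGES, at 0.52, with log2 changes of -1.18 in A431 and -2.48 in CAL27. AREG, which encodes the growth factor amphiregulin, was nearest to PTGR1, at 0.17, with log2 changes of 2.81 in A431 and 2.70 in CAL27. Members and patterns come from the same libraries, so these are descriptions.

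The genes beside HPGD on chromosome 4 moved less than HPGD. Of the 4 tested genes within 500000 bases of it, CEP44 had log2 changes of -0.87 in A431 and -0.61 in CAL27, both called, and FBXO8 one of -0.56 in A431, called; GLRA3 and a further gene were not called. Of 4 tested neighbours of PTGS2, 1 was higher and 2 lower in each line. Around PTGES 15 genes were tested, with 6 higher and 2 lower in A431 and 3 higher and 6 lower in CAL27. Of all tested genes 22.5% were called higher and 21.1% lower in A431, and 23.2% and 26.4% in CAL27. Nothing is read from the neighbour counts.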

How the data were processed

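RNA was measured in 8 libraries, 2 per group. The QuantSeq FWD kit used, per the labels' protocols, reads 3' ends. The authors deposited read counts per gene as whole numbers, with a table for each library. Reads were aligned with STAR to GRCh38, per the submitters' processing notes, and counted with featureCounts 2.0.8 over the basic GENCODE 39 annotation, per the file headers. The header command counted each mate of a pair, ignored strand and dropped reads with several positions or genes, so counts are not independent molecules, and overlapping genes cannot be separated. The alignment was filtered first by a step not given in the sources used here. Of gene counts from 1 to 40, 70.2% to 76.7% in a library were even.

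Symbols were matched for 61415 of 61533 identifiers; 1242 that shared a symbol with a more abundant identifier were left under their own. Computed here from the deposited counts: edgeR 4.0.16 in R 4.3.3, TMM scaling, the low-count filter filterByExpr (18738 genes), 1 mean per group with 4 residual degrees of freedom, quasi-likelihood tests and Benjamini-Hochberg adjustment over all genes tested. Compared were NEDD8i and DMSO within each line, the CAL27 change minus the A431 change, and CAL27 against A431 under DMSO. The standard error is the log2 change over the square root of F. A fold against a group at 0 used 3 counts over the group. On simulated counts of the A431 comparison over 18738 genes, 88% of 2-fold and 97% of 4-fold changes were recovered, with 17 false calls. Only 100 genes were changed at each fold, all of at least 1 CPM on average, whereas 8175 genes were called in the A431 data. The simulation thus does not cover so broad a change, nor genes as low as PTGER2 and SLCO2A1 in A431. Counts of replicates differed by 6.26 to 13.0 times sampling noise, so no library was counted as a copy. The labels do not say that replicate numbers pair libraries.

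The members and the lists were chosen with earlier results of these data known. Of the other lists, the text names up to 2 called genes with the largest change per line. From the lists of prostanoid synthases and of transport and breakdown it names up to 4 per line. Further genes, such as ANXA1, EGR1, CEBPB, CEBPD, ATF2, CREB1, PER1, SIK1 and NR4A2, were added outside this rule. Other called genes of the lists are not named. For HPGD and PTGS2 it names the 5 nearest patterns among genes of at least 1 CPM on average, and those of PTGES and PTGR1 were added afterwards. Alternatives were other scaling (RLE, upper quartile), other filters, DESeq2 1.42.0, counts divided by 2, a replicate block, fits of 1 comparison's libraries, and leaving out each library; a 2-fold limit and counts per PTGES3 count were added after seeing the data. Promoter letters came from RefSeq windows of GRCh38.p14.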

Additional observations from a re-analysis of the deposited data

Results flagged for a closer look

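Each of these genes responded differently to NEDD8i in the 2 lines, by edgeR's test of the CAL27 change minus the A431 change (log2 scale, adjusted p under 0.05), and the values are that difference. Among the prostaglandin genes they were PTGS2 (-0.50), PTGES (-1.79), PTGES2 (-0.77) and HPGD (2.33); the rule for choosing the genes used these changes, so they are descriptions. PTGES fell further in CAL27, whereas HPGD fell further in A431.

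Around them, the prostanoid synthases and reductases AKR1C3 (0.93), AKR1B1 (-0.87), CBR1 (-0.64), CBR3 (-2.05) and PRXL2B (-0.67), the phospholipase PLA2G12A (-0.46), the transporters SLCO3A1 (-0.90) and SLCO4A1 (-2.62), and the leukotriene gene CYP4F3 (1.34) differed. So did the fatty acid genes FADS1 (-1.36), FADS2 (-2.41) and ACSL1 (-0.98). The mRNA binding genes ZFP36 (-1.38), ZFP36L1 (-0.38) and ZFP36L2 (0.61) differed as well. So did the factors FOS (-2.70), EGR1 (-1.14), CEBPB (-0.70), CEBPD (-2.78), ATF2 (0.34) and CREB1 (0.53). The cAMP response genes PER1 (0.58), CREM (0.70) and NR4A1 (-1.19) differed too. The remainder were HSP90AA1 (0.33), CDC37 (0.71), FKBP4 (-0.57), FKBP5 (-0.46), SLC7A11 (0.91) and NR4A3 (7.84, a fitted value against a group at 0 that depends on the prior count). No explanation of these differences was tested.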

How the results depend on the processing

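The calls of PTGS2, PTGES, HPGD and PTGR1 in each line were the same in all alternatives that give calls. Counts per PTGES3 count give none. With them the CAL27 changes were 1.04 for PTGS2 and 2.52 for PTGR1, in place of 1.16 and 2.63, and PTGS1 in CAL27 was -0.11. With a limit of 2-fold added to the call, 5 genes were called in CAL27 and 2 for the difference between the lines' changes, in place of 8 and 4. Sign changes of PTGS1 and PTGES3 were near 0, and that of the PTGER2 difference was larger. The PTGS1 difference was 0.022 with RLE factors and with DESeq2, 0.060 with upper-quartile factors and 0.0057 with a filter at 1 CPM, and -0.050 to 0.010 with 1 library left out. PTGS1 in A431 was -0.052, PTGES3 in A431 -0.056 and PTGES3 between the lines 0.0080 with upper-quartile factors; PTGES3 in A431 was -0.0021 with the filter at 1 CPM. With 1 library left out, PTGS1 in CAL27 ranged from -0.021 to 0.030, the PTGER2 difference from -0.36 to 0.78, and NR4A3 in A431 from -6.69 to 0; the cause was not tested. Libraries of the same replicate number showed no shared deviation, with correlations of -0.036 to 0.0147 over 12842 genes. Whether they were prepared together cannot be told from this. The replicate block left 4, 8, 4 and 9 members called and moved the list genes called to 57 in A431 and 68 in CAL27, in place of 56 and 69. Depth limited PTGER2 in A431 and SLCO2A1, where 3 counts in 1 library were 0.0480 to 0.0612 CPM.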
